A study of Homo sapiens with 4 samples.

Results

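The zinc finger genes of chromosome 19 were followed in RNA-seq of HCT116 cells, a human colorectal cancer line, after transfection of an antisense oligonucleotide (ASO) against GAA repeats in RNA. A gene belonged to the set when it was protein coding, lay on chromosome 19 and carried a symbol made of ZNF, a number and at most 1 further letter. This rule took 244 of the 63677 genes counted, and it used no measured value. The series held 4 libraries of total RNA, 2 from cells transfected for 48 h with the anti-GAA ASO and 2 from cells transfected for the same time with the control ASO, and no untransfected library was analysed. The libraries carried replicate numbers 1 and 2 in each group, with total counts of 10538284 and 17894953 (anti-GAA ASO) and 15347298 and 15924742 (control ASO). All came from a single cell line, and nothing in the labels says whether replicates were separate cultures, so every p below measures only the spread between these libraries. Fewer transcribing cells and less RNA per cell cannot be told apart in such bulk samples.

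C2H2 zinc finger proteins bind DNA through arrays of short zinc-holding fingers joined by a conserved linker, and most genes of this set also encode a KRAB domain. The KRAB domain recruits the corepressor TRIM28 (KAP1), which brings in the histone H3K9 methyltransferase SETDB1 and heterochromatin proteins, and many of these proteins silence transposable elements. The family grew by tandem duplication, so that its genes lie in clusters on chromosome 19 whose neighbours have much alike finger sequences.

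The ASO is a 21-nt gapmer, in which modified flanks protect a DNA centre that directs RNase H to the paired RNA. It is shown with its DNA centre in capitals, above the 21-nt window that came closest to the GAA repeat in the longest transcript of 4 genes discussed below. In the windows, capitals mark the bases that equal the repeat.
anti-GAA ASO: ttcttcTTCTTCTTCttcttc
ZNF28, coding sequence, chr19:52801521-52801541, minus strand: aAAGAAGAtGAAacAaAtGAc
ZNF675, transcript without annotated coding sequence, chr19:23654311-23654331, minus strand: AAtgtGAAGAAtgtGAAaAAG
ZNF845, 5′ UTR, chr19:53341277-53341297, plus strand: GAAGAgGAAGAgGAAagcaAA
ZNF558, 3′ UTR, chr19:8810078-8810098, minus strand: AAtAtaAAGAAGAAGAgaAAG
Positions here and below are those of GENCODE 44 on GRCh38, since the counts were made on hg19 and no coordinate was carried over. The 4 windows equalled the repeat at 14, 14, 15 and 16 of 21 bases. Over the 244 genes the best window had a median of 14 equal bases (range 11 to 18), against 15 (range 9 to 21) over the 12179 tested protein coding genes. The longest unbroken GAA run in the longest transcript of any of the 244 genes was 11 nt. Introns and other transcripts of these genes were not searched. None of these longest transcripts therefore held a run of 12 nt or more, which 374 of the 14751 longest transcripts of tested genes (2.54%) did. Short GAA stretches were common in part of the family all the same, as given with the position clusters.

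The cells expressed epithelial genes at high level, with means over the 4 libraries of 685 CPM (counts per 1000000, scaled by TMM) for EPCAM and 1361 CPM for KRT19. The intestinal factor CDX2 had 20.4 CPM and CDH1 48.0 CPM, whereas VIL1, a brush border gene, had counts of 0, 0, 2 and 1 and was thus near 0. COL1A2, CD3E and PECAM1, markers of fibroblasts, T cells and endothelium, had 0 counts in all 4 libraries, and COL1A1 had 12.5 CPM.

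Of the 244 genes, 134 (54.9%) were expressed, meaning a mean of at least 1 CPM over the 4 libraries. This share was 74.4% (192 of 258) for ZNF genes of other chromosomes, 57.8% (695 of 1202) for the other protein coding genes of chromosome 19 and 60.1% (11617 of 19322) for all protein coding genes. In all 4 libraries 48 of the 244 genes had 0 counts, where 3 counts correspond to between 0.168 and 0.285 CPM depending on the library. A further 96 genes had 1 to 10 CPM and 38 had 10 to 100 CPM, and no member reached 100 CPM, a level that 9.69% of protein coding genes reached. The genes just below the limit of 1 CPM were ZNF91 (0.998 CPM), ZNF527 (0.995) and ZNF564 (0.907), and those just above it were ZNF419 (1.06 CPM), ZNF225 (1.17) and ZNF221 (1.17).

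Expressed members were also lower per length. Divided by the length of the longest transcript, their median level was 1.33 CPM per kb (quartiles 0.630 and 3.35), against 2.12 CPM per kb for expressed ZNF genes elsewhere, 7.95 for the other expressed genes of chromosome 19 and 5.802 for all expressed protein coding genes. The highest level per length within the family was that of ZNF428 (71.3 CPM per kb), followed by ZNF787 (18.02) and ZNF146 (15.95). The protein of ZNF146 consists almost entirely of zinc fingers and has no KRAB domain. Its RNA had 55.6 and 39.3 CPM in the anti-GAA libraries and 88.7 and 57.7 CPM in the control libraries, so that the groups did not overlap.

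The question of the comparison was whether the ASO against GAA repeats changed the RNA of these genes. By edgeR's quasi-likelihood test with Benjamini-Hochberg adjustment, 0 of 143 tested members were called in either direction, as were 0 of all 15116 tested genes (0% in each direction). The smallest adjusted p was 0.922 among the members and 0.671 among all genes. DESeq2 also called 0 members lower and 0 higher, and 0.0331% of all tested genes lower. The 143 tested genes were those kept by the filter on low counts, namely the 134 expressed genes and 9 below 1 CPM. At an unadjusted p under 0.05 the edgeR fit gave 8 members lower (5.59%), with 3.46% of all tested genes lower, and 0 members higher, with 1.02% of all tested genes higher. The statements that follow therefore describe sizes and directions, none of which passed the test for a single gene in this fit. A fit with the replicate number as a term, which changed the call of ZNF28 and ZNF146, is given with the alternatives.

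The members lay to the lower side as a group. The summed level of all 244 genes was 1385 and 1215 CPM in the anti-GAA libraries, and 1431 and 1395 CPM in the controls. The median log2 fold change (anti-GAA over control) of the 143 tested members was −0.13, with quartiles of −0.39 and 0.09, and 90 of them (62.9%) were below 0, against 48.4% of all tested genes. For comparison, the median was 0.01 over all tested genes, −0.03 over 198 ZNF genes of other chromosomes, of which 56.1% were below 0, and 0.03 over 741 other protein coding genes of chromosome 19, of which 46.3% were below 0. Over libraries left out in turn the same medians were −0.03 to 0.03, −0.08 to −0.003 and −0.009 to 0.02. The difference between the ZNF genes of chromosome 19 and those elsewhere was not tested, and the sets differed in make-up, with a median GC content of 42.9% and 45.8% of the longest transcript. ZNF genes elsewhere with a GC content under 40% also lay to the lower side (median −0.19, 77.3% below 0). The typical change of a member within a replicate was close in size to the difference between libraries of one group. That difference also holds shifts shared by same-numbered libraries, whose deviations from the group means correlated at 0.564 across genes. It therefore does not measure the spread of the change within a replicate. The median absolute log2 difference of a member between anti-GAA and control was 0.29 in either replicate, and it was 0.28 between the control libraries and 0.35 between the anti-GAA libraries. Over all tested genes the same medians were 0.25 in either replicate, 0.32 between the control and 0.33 between the anti-GAA libraries.

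Taken separately for libraries of the same replicate number, the median difference of the members was −0.10 for replicate 1 and −0.21 for replicate 2, and over all tested genes it was −0.004 and 0.02. In both replicates the anti-GAA library was lower for 62 members (43.4%), and for 30% of all tested genes. It was higher in both for 28 members (19.6%) and for 31.8% of all tested genes. For 47 members (32.9%) both anti-GAA libraries were below both control libraries, which held for 16.9% of all tested genes, and for 12 members (8.39%) both were above, which held for 15.5%.

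**Figure D1:**
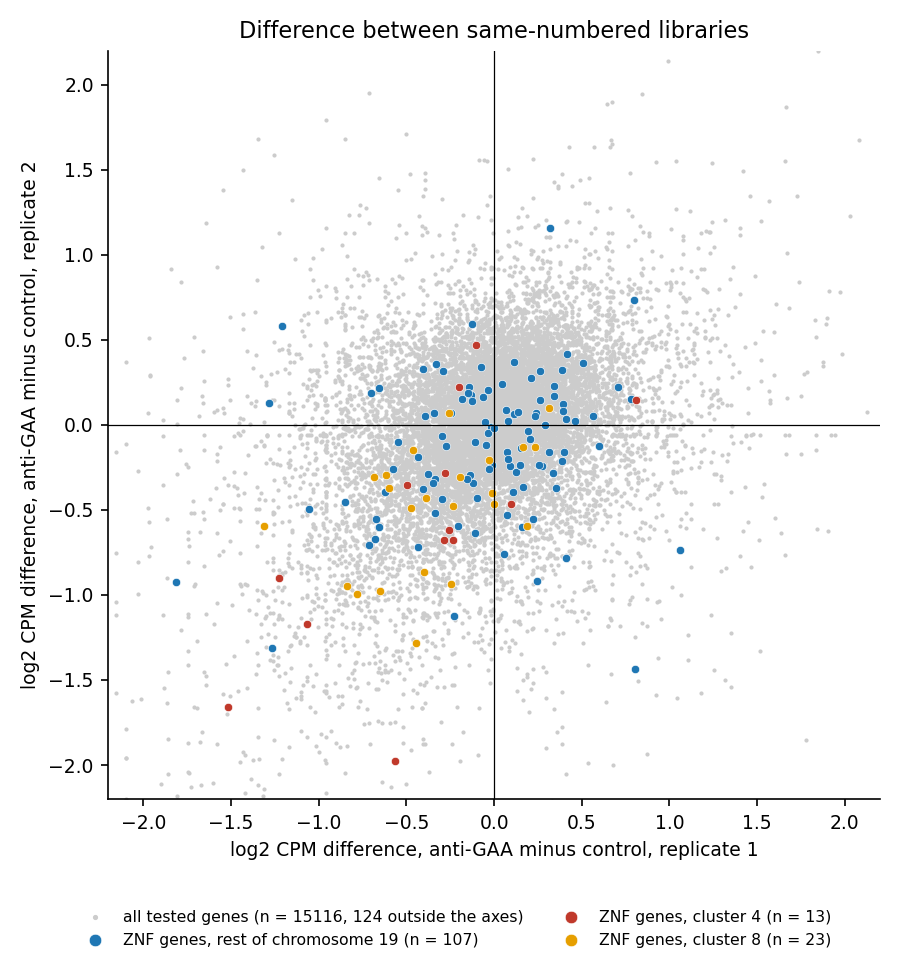
Difference in log2 CPM between the anti-GAA and the control library of replicate 1 (x axis) and of replicate 2 (y axis) for 143 tested chromosome 19 ZNF genes, coloured by position cluster, over all 15116 tested genes in grey, of which 124 fall outside the axes. The lower left quadrant holds 62 of the 143 genes and the upper right quadrant 28.

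Genes of low level lay lower than abundant ones throughout the table, so the members were set beside all tested genes of the same level. At 1 to 2 CPM the median log2 fold change was −0.26 for 16 members and −0.11 for all 1434 genes. At 2 to 4 CPM it was −0.19 for 31 members and −0.06 for all 1413 genes, and ZNF genes elsewhere had −0.21. At 4 to 8 CPM it was −0.05 for 38 members and −0.05 for 1530 genes. At 8 to 16 CPM it was −0.15 for 22 members and −0.03 for 1930 genes, and at 16 CPM or more 0.01 for 27 members and 0.06 for 7498 genes. Over libraries left out in turn the members' medians were −0.29 to −0.19 at 1 to 2 CPM, −0.37 to −0.13 at 2 to 4 CPM, −0.17 to −0.0047 at 4 to 8 CPM, −0.29 to −0.11 at 8 to 16 CPM and −0.18 to 0.12 at 16 CPM or more, where the sign thus changed. After subtraction of the median of all tested genes of the same level, the median of the members was −0.09, and 58.7% of them were below 0. For ZNF genes of other chromosomes this median was −0.03, with 54.5% below 0. The value of the members was −0.03 in replicate 1 and −0.19 in replicate 2. It was −0.01 without the anti-GAA library of replicate 2 and −0.19 without that of replicate 1, so the size of the shift rested on the anti-GAA library used.

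**Figure D2:**
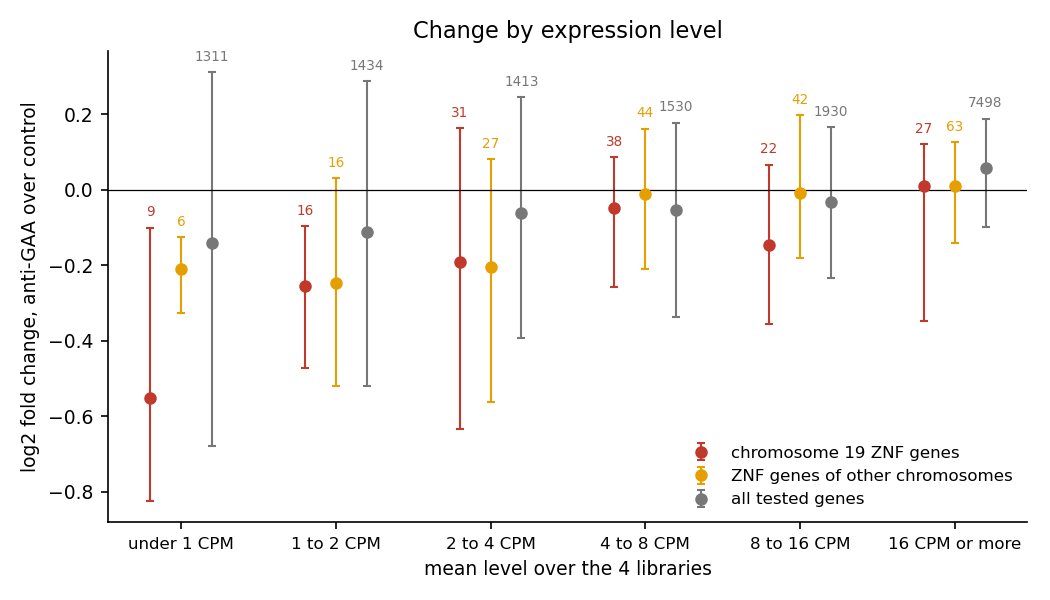
Median log2 fold change (points) with quartiles (bars) by class of mean CPM for chromosome 19 ZNF genes, ZNF genes of other chromosomes and all tested genes, with the number of genes above each bar. The members' medians lie below those of all tested genes in each class but that of 4 to 8 CPM, where both are −0.05, and the quartiles overlap in every class.

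Among single genes, ZNF28 (ENSG00000198538, chr19:52797408-52857600, minus strand) had the smallest p on the lower side. It had 13.6 and 16.5 CPM in the anti-GAA libraries, and 24.5 and 32.0 CPM in the control libraries. Both anti-GAA libraries were below both controls, and the log2 fold change was −0.90 ± 0.25 (SE; edgeR adjusted p = 0.922). ZNF675, which encodes a KRAB protein described as a binding partner of the signalling adaptor TRAF6, had 0.505 and 0.618 CPM against 1.70 and 2.24 CPM. Those values stand for 5 and 11 counts against 26 and 38 counts, and the log2 fold change was −1.77 ± 0.48 (SE; edgeR adjusted p = 0.922). The level of ZNF675 was thus low in every library, although the groups did not overlap.

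ZNF112 had 1.11 and 2.02 CPM (anti-GAA) against 4.24 and 3.95 CPM (control). For ZNF845 the values were 2.53 and 2.81 CPM against 4.43 and 5.72 CPM. For ZNF765 they were 3.94 and 3.15 CPM against 6.26 and 6.31 CPM. In these 3 genes too the groups did not overlap, and the log2 fold changes were −1.34 ± 0.42, −0.92 ± 0.35 and −0.84 ± 0.32 (SE; edgeR adjusted p = 0.987, 0.996 and 0.996). ZNF845 and ZNF765 lie in the same cluster and held the identical best window, printed above for ZNF845, each in its 5′ UTR. The other 3 genes with an unadjusted p under 0.05 were ZNF708 (−1.24), ZNF525 (−0.93) and ZNF846 (−1.34). The exons of ZNF28, ZNF112 and ZNF765 overlap those of other genes, and without a stated strand setting such reads cannot be assigned with certainty, and 11.5% of the 50-nt words of ZNF112 occur in another gene, whereas ZNF675 and ZNF845 have no overlapping exon in this annotation.

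On the higher side no p was under 0.05. ZNF543 had 2.93 and 2.25 CPM (anti-GAA) against 1.63 and 1.30 CPM, and ZNF333 had 5.15 and 5.56 CPM against 4.11 and 2.42 CPM. Their groups did not overlap, with log2 fold changes of 0.81 ± 0.41 and 0.72 ± 0.38 (SE; edgeR adjusted p = 0.996 for both). That of ZNF333 was 0.39 without the control library of replicate 2 and 1.14 without that of replicate 1. ZNF524, ZNF552 and ZNF235 followed with 0.45, 0.42 and 0.49, and with 0.23 to 0.65, 0.19 to 0.65 and 0.24 to 0.74 over libraries left out in turn. For ZNF552 the anti-GAA libraries had 11.6 and 8.54 CPM and the control libraries 8.67 and 6.37 CPM, so that its groups overlapped, while the difference within either replicate was 0.42 on the log2 scale. Of its longest transcript 18.4% of 50-nt words also occur in another gene, with ZNF587B sharing the most.

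Of the 5 genes with the highest CPM, ZNF428, ZNF480 and ZNF787 differed little between groups, with log2 fold changes of 0.16, 0.03 and 0.05. ZNF428 had 96.9 and 78.1 CPM against 82.2 and 74.4 CPM, ZNF480 had 46.2 and 33.8 against 41.2 and 36.9 CPM, and ZNF787 had 42.0 and 29.2 against 39.8 and 28.8 CPM. ZNF121 had 50.8 and 71.5 CPM against 64.2 and 89.3 CPM. In these 4 genes the groups overlapped, and libraries of one group differed by more than the group means. For ZNF121 the log2 fold change was −0.33, and the anti-GAA library was lower in both replicates, with log2 differences of −0.34 and −0.32. ZNF146 had a log2 fold change of −0.63 ± 0.29 (SE; edgeR adjusted p = 0.996), and −0.90 to −0.29 over libraries left out in turn.

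**Figure D3:**
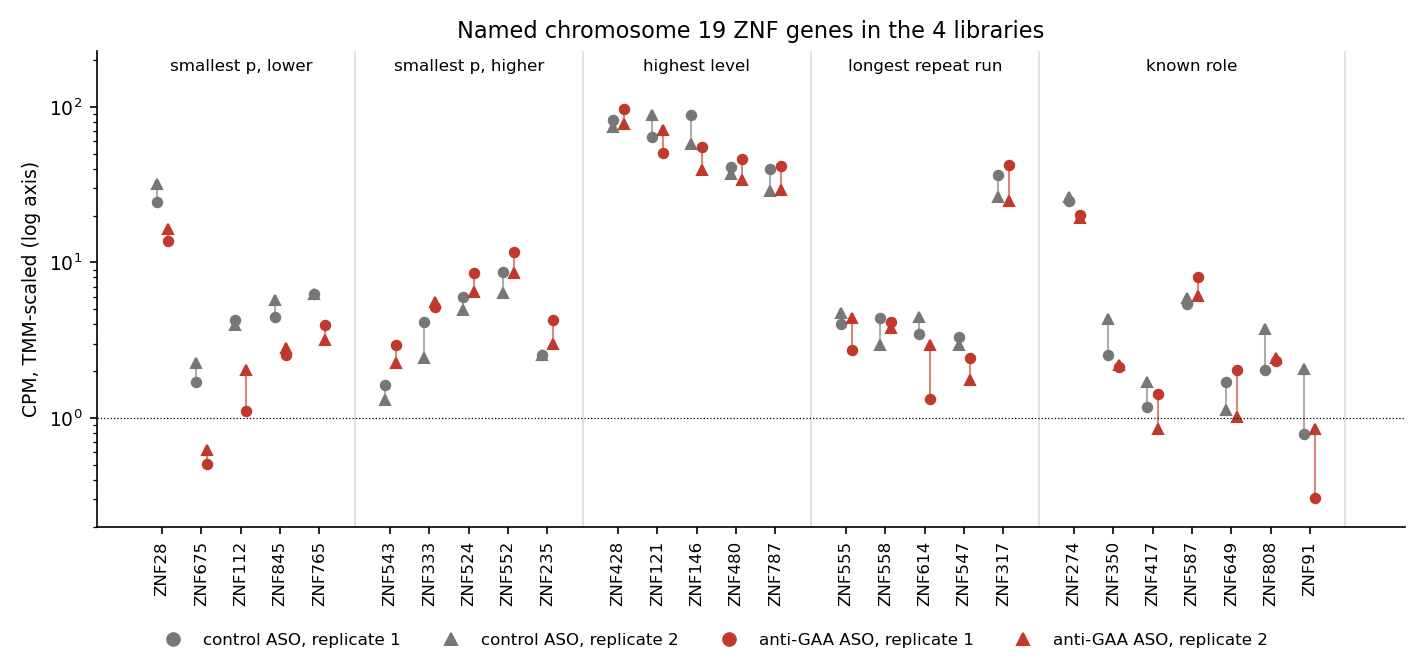
CPM on a log axis for the named chromosome 19 ZNF genes with a mean above 0.1 CPM in the control libraries (grey) and the anti-GAA libraries (red), with circles for replicate 1 and triangles for replicate 2 and a dotted line at 1 CPM. Red points lie below both grey points for ZNF28, ZNF675, ZNF112, ZNF845 and ZNF765, and the highest genes overlap except ZNF146.

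The members with an established role were mostly low. ZNF91 and ZNF93 are known as repressors of SVA and LINE-1 elements, respectively. ZNF91 had 0.303 and 0.843 CPM (anti-GAA) and 0.783 and 2.06 CPM (control), which overlap, and a log2 fold change of −1.21 ± 0.70 (SE; edgeR adjusted p = 0.996) on 3 to 35 counts per library. It was −2.20 to −0.35 over libraries left out in turn, and the anti-GAA library was lower in both replicates, with log2 differences of −1.07 and −1.17. ZNF93 had 0 counts in all 4 libraries, and ZNF331, an imprinted gene, had 1 count in 1 library.

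ZNF274, which binds the 3′ ends of zinc finger genes and brings SETDB1 to them, had the highest CPM of this list, with 20.2 and 19.4 CPM against 24.8 and 26.3 CPM. The anti-GAA libraries were both below the controls and the log2 fold change was −0.37 ± 0.21 (SE; edgeR adjusted p = 0.996). ZNF350 (ZBRK1), a partner of BRCA1, had 2.12 and 2.19 CPM against 2.54 and 4.30 CPM. ZNF558, which regulates the mitophagy gene SPATA18, held the window with the most bases equal to the repeat among the genes printed above, and had 4.14 and 3.77 CPM against 4.37 and 2.95 CPM. The groups of ZNF558 overlapped. ZNF417 and ZNF587, closely related repressors of endogenous retroviruses, had log2 fold changes of −0.40 and 0.32 with adjusted p of 0.996 each, but 37.9% and 24.6% of their 50-nt words are shared with other genes, so that the split of reads between them is uncertain. Leaving out each library in turn gave −0.76 to −0.03 for ZNF417 and 0.12 to 0.52 for ZNF587. ZNF649 (0.07) and ZNF808 (−0.28), of which the latter takes part in pancreas development, had overlapping groups, and the sign of either value changed when single libraries were left out (−0.46 to 0.53 and −0.65 to 0.24).

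Position along the chromosome separated the genes further. A cluster was a run of at least 5 members whose starts were under 1 Mb apart, which gave 9 clusters and left 11 genes outside them. Clusters 4 and 8 are described in detail because of their values, so no test of them was made. Cluster 4 (chr19:19668796-24129968), next to the centromere on the short arm, held 37 genes from ZNF101 to ZNF254, and 10 of them (27.03%) were expressed, with 0 counts in every library for 16. Cluster 8 (chr19:51571283-53580269), on the long arm, held 39 genes from ZNF175 to ZNF331, of which 23 (59.0%) were expressed.

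In cluster 4 the median log2 fold change of the 13 tested genes was −0.45, and 10 of 13 were below 0. It was −0.28 in replicate 1 and −0.62 in replicate 2. In cluster 8 the median of the 23 tested genes was −0.41, and 20 of 23 were below 0, with −0.39 in replicate 1 and −0.43 in replicate 2. For 15 of these 23 genes (65.2%) both anti-GAA libraries were below both controls, and for 0 both were above, where 16.9% and 15.5% of all tested genes did so. Leaving out each library in turn kept both medians below 0, within −0.53 to −0.35 for cluster 4 and −0.47 to −0.36 for cluster 8.

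Examples from cluster 8 that were not chosen by p were taken after their values had been seen. ZNF468 had 16.5 and 19.2 CPM (anti-GAA) against 24.98 and 24.83 CPM, and ZNF761 had 12.1 and 12.5 CPM against 15.9 and 16.9 CPM. ZNF766 was on the other side, with 23.1 and 25.6 CPM against 18.6 and 23.8 CPM. The groups of the first 2 genes did not overlap and those of ZNF766 did.

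The 107 tested members outside clusters 4 and 8 had a median of −0.04, and 56.1% were below 0. The largest cluster, cluster 9 towards the end of the long arm with 58 genes of which 39 were tested, had a median of −0.02. Clusters 1, 3 and 7 had −0.21 (4 tested genes), −0.25 and −0.24. The median of cluster 3 was 0.02 in replicate 1 and −0.34 in replicate 2, and it was −0.46 to −0.02 over libraries left out in turn, against −0.42 to −0.09 for cluster 1 and −0.33 to −0.15 for cluster 7. The medians of clusters 2, 5 and 6 were 0.08, 0.09 and 0.07. The sign of the medians of clusters 2, 5, 6 and 9 changed when single libraries were left out.

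Sequence set cluster 4 apart in a way that the rule for the set did not use. The hexamer GAAGAA, counted on the RNA strand with overlaps allowed, occurred 1142 times in the longest transcripts of the 244 genes. The median was 13 for genes of cluster 4 and 2 for the other members, and of the 32 members with 10 or more hexamers 29 were in cluster 4. Of all hexamers in cluster 4, 78.5% had TGN directly before and TGN directly after them on the RNA strand, a context in which the flanking triplets can be the cysteine codons of a finger. The corresponding share was 10.9% in the other members. This context was present in the transcripts of 22.4% of tested members, 6.57% of tested ZNF genes of other chromosomes and 1.60% of all tested genes. The 30-nt window ending in this context that the most genes of cluster 4 held is shown for ZNF91, above the window with the fewest mismatches to it in 2 genes of cluster 8, with the hexamer in capitals.
ZNF91, coding sequence, chr19:23362082-23362111, minus strand: ggagagaaaccctacaaatgtGAAGAAtgt
ZNF845, coding sequence, chr19:53351726-53351755, plus strand: ggagagaaaccttacaaatgtGAAGAAtgt
ZNF28, coding sequence, chr19:52800429-52800458, minus strand: gcagagaaaccatacaaatgtGAAGAAtgt
The stretch occurred 6 times in the transcript of ZNF91. It occurred without a mismatch in 35 of the 37 genes of cluster 4, in no member outside the cluster and in 15 of 258 ZNF genes of other chromosomes. The windows of ZNF845 and ZNF28 differed from it at 1 and 2 bases. It begins within the conserved linker between fingers.

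The classes by hexamer number were bounded after their values had been seen. Among tested members the median log2 fold change was −0.02 for 46 genes with 0 or 1 hexamer, −0.18 for 66 genes with 2 to 4, −0.13 for 21 genes with 5 to 9 and −0.69 for 10 genes with 10 or more. Over libraries left out in turn these medians were −0.18 to 0.15, −0.22 to −0.14, −0.27 to −0.10 and −0.87 to −0.41. The sign thus changed for genes with 0 or 1 hexamer. In the last class 9 of 10 genes were below 0, and 9 of the 10 belonged to cluster 4, so hexamer number and position cannot be told apart there. Over all tested genes the class with 10 or more hexamers had a median of −0.19 (n = 919, 71.3% below 0), and ZNF genes of other chromosomes in that class had −0.14 (n = 19). The median of the 10 members was −0.41 without the control library of replicate 2. In cluster 8 the 22 tested genes with fewer than 10 hexamers had a median of −0.40.

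Within the highest class the genes differed widely. ZNF430 had 10.3 and 8.15 CPM (anti-GAA) against 12.1 and 13.1 CPM, and ZNF100 had 7.17 and 7.81 CPM against 10.2 and 10.02 CPM. ZNF738, with 23 hexamers, had 6.67 and 8.37 CPM against 7.17 and 6.02 CPM and was the only gene of the class with a log2 fold change above 0 (0.20). Of its longest transcript 28.6% of 50-nt words occur in another gene.

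**Figure D4:**
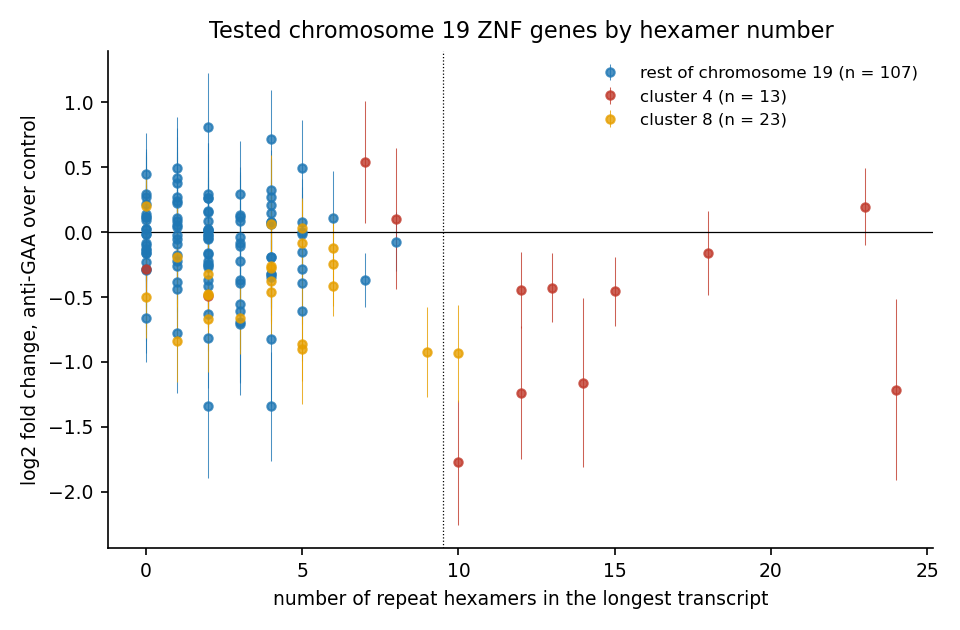
Log2 fold change with its standard error (bars) of the 143 tested chromosome 19 ZNF genes against the number of repeat hexamers in the longest transcript, coloured by position cluster, with a dotted line below 10. To the right of the line lie 10 genes, 9 of cluster 4 and 1 of cluster 8, and 9 of them are below 0.

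By unbroken GAA run, the 18 tested members with a run of 9 to 11 nt had a median of −0.07, 9 of 18 below 0, and the 125 with shorter runs had −0.13. The ranges over libraries left out in turn overlapped, with −0.25 to −0.07 for the former and −0.19 to −0.11 for the latter, so no order between these classes was read. Over all tested genes the medians were −0.04 (n = 2591, 55.8% below 0) and 0.03 (46.0% below 0). Of the 5 expressed members taken for the longest runs, ZNF555, ZNF558, ZNF614 and ZNF547 had 10 nt. The fifth, ZNF317, had 9 nt and was tied with others such as ZNF417 and ZNF587. ZNF614 had 1.31 and 2.92 CPM against 3.46 and 4.48 CPM and ZNF547 2.42 and 1.74 CPM against 3.33 and 2.95 CPM, without overlap of the groups. The log2 fold change of ZNF614 was −1.59 to −0.43 over libraries left out in turn. ZNF555 (2.73 and 4.38 against 4.04 and 4.72 CPM), ZNF317 (42.3 and 24.7 against 36.7 and 26.2 CPM) and ZNF558 overlapped. Over all tested genes a run of 12 nt or more went with a median of −0.16 (n = 374), a class that held no member.

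Base composition moved with part of the same values. Members whose longest transcript had a GC content under 40% had a median log2 fold change of −0.43 (n = 29, 79.3% below 0), against −0.19 for ZNF genes of other chromosomes in that class (n = 44, 77.3% below 0) and −0.06 for all tested genes of that class, and members of 50% GC or more had 0.10 (n = 28). The median GC content was 37.3% for the tested genes of cluster 4 and 41.4% for those of cluster 8, against 46.6% for cluster 9. Cluster 6, also at 41.4%, had a median log2 fold change of 0.07, and cluster 2, at 42.9%, had 0.08. Clusters 3 and 7, at 42.0% and 42.8%, had −0.25 and −0.24. The part of GC content in these differences was not tested. When each library's trend on transcript length and GC content was removed, the median was −0.31 for cluster 4 and −0.40 for cluster 8.

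The genes of the proteins through which KRAB zinc finger proteins act showed no common direction. Of a list of 25 corepressor genes, 24 were tested, and 0 were called in either direction by edgeR, and at an unadjusted p under 0.05 there was 1 on either side (4.17% each, against 3.46% lower and 1.02% higher over all tested genes). Their median log2 fold change was 0.04 (−0.05 with scaling to total counts), with 12 of 24 below 0. TRIM28 had 184 and 203 CPM (anti-GAA) against 119 and 196 CPM (control). SETDB1 had 21.1 and 19.7 CPM against 18.98 and 19.05 CPM. Their log2 fold changes were 0.30 ± 0.27 and 0.10 ± 0.21 (SE; edgeR adjusted p = 0.996 for both). That of TRIM28 was −0.03 without the control library of replicate 1 and 0.71 without that of replicate 2. For SETDB1 it was 0.06 to 0.15 over libraries left out in turn.

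ATRX, which deposits histone H3.3 in heterochromatin together with DAXX, had the smallest p of the list, with 2.53 and 1.69 CPM against 5.28 and 3.72 CPM and a log2 fold change of −1.11 ± 0.41 (SE; edgeR adjusted p = 0.996). Its longest transcript held 34 hexamers and a GAA run of 13 nt. Other genes of the list, named after their values had been seen, held such stretches with smaller differences. CHD4, with 22 hexamers and a run of 18 nt, had a log2 fold change of −0.06, and CHD3, with 24 hexamers and a run of 15 nt, had −0.47. TASOR, with 15 hexamers, had −0.44, and EHMT2, with a run of 14 nt, had −0.29. DNMT1, with 14 hexamers and a run of 12 nt, had −0.25, and MPHOSPH8, with 12 hexamers, had 0.12. The anti-GAA library was lower in both replicates for each of them except MPHOSPH8, which had 0.41 in replicate 1 and −0.33 in replicate 2. SUMO2, a modifier that joins the TRIM28 pathway, was on the other side, with 375 and 384 CPM against 283 and 264 CPM and a log2 fold change of 0.47 ± 0.18 (SE; edgeR adjusted p = 0.996). In ATRX and SUMO2 the groups did not overlap.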

How the data were processed

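RNA of HCT116 cells was sequenced in 4 libraries. Per the labels and the study's methods, the authors trimmed reads with Trimmomatic, aligned them with STAR and counted them with featureCounts on hg19 with Ensembl genes. The values deposited by the authors were raw, unnormalized counts of reads per gene, and 0 per-sample columns went unused. The labels name a total RNA library kit and 48 h of transfection, and the methods text describes both differently. The strand setting and the handling of multi-mapping reads are not given in the sources used here.

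Differences between the ASOs were tested on the counts with edgeR 4.0.16 in R 4.3.3 (filterByExpr, TMM, quasi-likelihood F-test without covariates, Benjamini-Hochberg adjustment over 15116 genes, threshold 0.05), with DESeq2 1.42.0 as an alternative. Single libraries were compared by log2 CPM (prior count 2). With 2 libraries per group, precision depended on replicate spread and on depth, whose parts were not compared, and counts limit genes under 1 CPM. Floors of 3 counts cover counting error only. Symbols, transcripts and positions came from GENCODE 44 by Ensembl identifier (52181 of 63677 genes matched). It holds 246 genes that meet the rule, of which 244 were counted. Among tested members, 84 have exons overlapping another gene and 29 share over 10% of their 50-nt words with another gene.

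The genes named were, among members of at least 1 CPM, the 5 of smallest p on the lower and on the higher side, the 5 with the highest CPM and the 5 with the longest GAA run, then members of well known role, and from the corepressor list TRIM28, SETDB1 and the 2 with the smallest p. The members and lists were chosen with earlier results of these data known, and the hexamer and GC classes and genes named outside the rule were chosen after their values had been seen. In the choice by GAA run, ZNF317 at 9 nt was tied with other members. UHRF1 of the corepressor list was not analysed here. Alternatives were other scalings and filters, DESeq2, the replicate number as a block, offsets for transcript length and GC content, leaving out each library, and leaving out members with shared sequence or overlapping exons.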

Additional observations from a re-analysis of the deposited data

How the results depend on the processing

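The median log2 fold change of the members was below 0 under every alternative run. It was −0.23 with scaling to total counts, where all tested genes had −0.08 in place of 0.01. That scaling thus lowered genes in general, and 74.8% of members were then below 0. Without members whose exons overlap another gene, 67.8% were below 0. Leaving out each library in turn gave a median of −0.19 to −0.11 and 60.8% to 70.7% below 0, where the lone library of a group is assumed to vary like the others. For all tested genes 47.3% to 52.4% were then below 0. Cluster 8 had a median of −0.51 with scaling to total counts and −0.47 to −0.36 over the libraries left out, cluster 4 had −0.53 to −0.35, and members with 10 or more hexamers had −0.87 to −0.41. The cause of these differences was not tested. DESeq2 gave 4 members lower at an unadjusted p under 0.05 (2.1% of all tested genes) in place of 8, and leaving out libraries gave 2 to 9 lower and 0 to 1 higher. It gave 2 lower without control ASO replicate 2 (1.86% of all tested genes), 4 without anti-GAA ASO replicate 1 (3.33%), 6 without anti-GAA ASO replicate 2 (3.92%), and 9 lower and 1 higher without control ASO replicate 1 (3.86% and 1.59%).

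When the replicate number was a block term, 2 members were called lower (ZNF28 and ZNF146) and 0 higher at an adjusted p under 0.05, where 1.37% and 0.337% of all tested genes were called, and 23 members were lower and 2 higher at an unadjusted p (9.7% and 6.86% of all tested genes). The block together with length and GC offsets also gave 2 lower (1.46% of all tested genes), and 22 lower and 2 higher unadjusted (9.6% and 7.22%). For ZNF28 the adjusted p was 0.0135 and for ZNF146 0.0446 with the block, within ranges over the alternatives of 0.0118 to 1.00 and 0.0287 to 1.00. The common dispersion, edgeR's measure of spread between libraries, was 0.0549 without the block and 0.0148 with it. DESeq2 with the replicate block, chosen after seeing the data, called 0 members, with 0.298% of all tested genes lower and 0.086% higher. The titles of same-numbered libraries share a leading number whose meaning the labels do not give, so whether it marks a shared batch is not known here, and the deviations of same-numbered libraries from their group means correlated at 0.564 across genes, which are not independent replicates.

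The number expressed was 118 to 146 under the other limits and scalings and 132 to 137 without single libraries. Depth limited the genes under 1 CPM, where a library held few counts, such as 3 to 35 for ZNF91.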
